A study of Mus musculus with 8 samples.

Results

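The ErbB receptors and their neuregulin ligands were followed in mRNA-seq of the developing mouse bowel. They comprised 8 genes chosen by family membership and matched by symbol: the receptors *Egfr*, *Erbb2*, *Erbb3* and *Erbb4* and the neuregulins *Nrg1*, *Nrg2*, *Nrg3* and *Nrg4*. Of the 29092 genes in the count table, 7 were members of this family, and *Erbb4* was not analysed here. ENCDCs (enteric neural crest-derived cells, the precursors of the enteric nervous system, or ENS) were the GFP+ cells sorted from E13.5 bowels, and the gut samples were the GFP- cells, which hold every other cell type of the same bowels. Both populations came from embryos heterozygous for *Ednrb-EGFP*, a transgene that places GFP under control of the endothelin receptor B gene. The authors bred these embryos on C57BL/6J and name no other engineered allele for them. The tissue ran from stomach to anus, and each population was sequenced as 4 libraries, with RNA pooled where needed. The p-values therefore measure the spread between these libraries.

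ErbB receptors are receptor tyrosine kinases that signal as pairs. ErbB2 has no known soluble ligand of its own, whereas ErbB3 binds neuregulins but has a kinase with little activity. The ErbB2/ErbB3 heterodimer is thus one unit that carries neuregulin signals into the MAPK and PI3K-Akt pathways. ErbB4, whose gene was not analysed here, also binds neuregulins. In the neural crest lineage, neuregulin signaling through ErbB3 is known for its role in Schwann cells and other peripheral glia, and both *NRG1* and *NRG3* have been associated with Hirschsprung disease in people. EGFR binds a separate group of EGF-type ligands and is best known in epithelium and mesenchyme.

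The structural difference between the receptors lies in the kinase, and the coding stretch that shows it is given for the 3 receptors measured. Each stretch runs from just before the lysine that holds ATP to beyond the glutamate of helix C, which pairs with that lysine in an active kinase. The codon of the lysine and the codon at the glutamate position are in capitals, and the sequences are from GENCODE M21 transcripts on GRCm38 (mm10), with chr11:16893047-16893106 and chr11:16896894-16896947 (plus strand) for *Egfr*, chr11:98433438-98433497 and chr11:98433892-98433945 (plus strand) for *Erbb2*, and chr10:128573175-128573234 and chr10:128572891-128572944 (minus strand) for *Erbb3*. All are coding sequence of exons 19 and 20.
Egfr: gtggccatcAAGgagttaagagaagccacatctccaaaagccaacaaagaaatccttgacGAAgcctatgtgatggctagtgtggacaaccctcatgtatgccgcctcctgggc
Erbb2: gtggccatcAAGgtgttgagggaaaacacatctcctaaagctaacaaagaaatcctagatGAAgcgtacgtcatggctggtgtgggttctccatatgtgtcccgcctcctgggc
Erbb3: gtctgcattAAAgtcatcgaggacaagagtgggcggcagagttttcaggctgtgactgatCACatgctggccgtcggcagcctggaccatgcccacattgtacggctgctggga

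All 3 receptors encode the lysine, while *Erbb3* encodes histidine at the glutamate position (E764H relative to *Egfr* and E771H relative to *Erbb2*, counted from the initiator methionine of the first-named protein). Over the 38 residues, the *Egfr* and *Erbb2* proteins were identical at 31 (81.6%). *Erbb3* matched *Egfr* at 11 (28.9%) and *Erbb2* at 9 (23.7%), so the receptor with the most mRNA in ENCDCs was also the divergent kinase.

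The neuregulins share an EGF-like domain, the part that binds the receptor. It is shown from its first to its last cysteine, with the 6 cysteine codons in capitals, for the neuregulin with the largest share in ENCDCs (*Nrg1*), the neuregulin found almost entirely in ENCDCs (*Nrg3*) and a neuregulin scarce in both populations (*Nrg4*). The coding bases lie at chr8:31849310-31849398 and chr8:31837698-31837728 for *Nrg1*, chr14:39011969-39012054 and chr14:38668261-38668291 for *Nrg3*, and chr9:55280890-55280969 and chr9:55242177-55242207 for *Nrg4*, all on the minus strand of GRCm38.
Nrg1: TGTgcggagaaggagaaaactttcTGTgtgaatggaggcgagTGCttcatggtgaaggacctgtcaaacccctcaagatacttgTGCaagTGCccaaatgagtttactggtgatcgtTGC
Nrg3: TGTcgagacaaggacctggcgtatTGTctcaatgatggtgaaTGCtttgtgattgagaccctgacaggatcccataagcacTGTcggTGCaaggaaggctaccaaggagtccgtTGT
Nrg4: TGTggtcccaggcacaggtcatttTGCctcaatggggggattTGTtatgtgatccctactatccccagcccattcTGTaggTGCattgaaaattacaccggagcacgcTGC

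The domains had the same 6 cysteines and differed at most of the other residues: *Nrg1* and *Nrg3* were identical at 14 of 39 aligned residues (35.9%), *Nrg1* and *Nrg4* at 14 of 37 (37.8%) and *Nrg3* and *Nrg4* at 17 of 37 (45.9%). All 10 coding transcripts of *Nrg1* and all 3 of *Nrg3* in the annotation held the site, against 2 of 5 for *Nrg4*. The counts below are per gene and do not separate such transcripts.

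The deposited values were whole-number read counts that the authors had brought to nearly the same depth, with totals of 13250893 to 13264785 in ENCDC libraries and 13257119 to 13267220 in gut libraries. *Ednrb*, whose reporter was used for the sort, had 34098 to 40395 counts in ENCDC libraries and 2441 to 2762 counts in gut libraries, so no library went against its label. All 14 markers of enteric progenitors, glia and young neurons rose in ENCDCs, and none of the 41 markers of other gut cell types did. ENCDC replicate 3 had the highest summed level of mesenchyme and smooth muscle markers among the ENCDC libraries. A gene was tested when either population averaged at least 3 reads per library and had reads in 3 or more of its 4 libraries. This left 18866 genes, which were compared by edgeR's quasi-likelihood test with Benjamini-Hochberg adjustment across them. In bulk RNA, fewer cells of a type and less RNA per cell cannot be told apart.

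All 7 measured members entered this test, *Nrg3* only through its counts in ENCDCs, so that the filter itself favored a difference for this gene. *Erbb3* and *Nrg3* rose in ENCDCs, *Erbb2*, *Egfr* and *Nrg2* fell, and *Nrg1* and *Nrg4* did not pass the adjusted threshold of 0.05. Among all genes tested, 17.0% rose and 20.9% fell, and the counts did not overlap in 15.0% with ENCDCs higher and in 22.3% with ENCDCs lower. The same 2 members had every ENCDC count above every gut count, and the same 3 had every ENCDC count below every gut count.

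*Erbb3* (ENSMUSG00000018166, chr10:128567523-128589652, minus strand, GRCm38) encodes the neuregulin receptor with the weak kinase. It had 5452, 4660, 5694 and 8001 counts in ENCDC replicates 1 to 4, against 178, 220, 236 and 90 counts in gut replicates 1 to 4. The lowest ENCDC library was far above the highest gut library, and the ENCDC library with the most *Erbb3* was replicate 4. The normalized mean and SD over 4 libraries were 6064 ± 1528 in ENCDCs and 178 ± 64.4 in gut cells, a 34.1-fold higher level in ENCDCs (log2 fold change 5.09, SE 0.29, edgeR adjusted p = 2.53e-07).

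*Erbb2* (ENSMUSG00000062312, chr11:98412470-98437716, plus strand) encodes the co-receptor that supplies the active kinase of the heterodimer. Its counts were 614, 472, 910 and 834 in ENCDC replicates 1 to 4, against 1549, 1469, 1896 and 1648 in gut replicates 1 to 4. All ENCDC libraries were lower than all gut libraries, yet all of them held *Erbb2* reads in quantity. The mean was 719.7 ± 203.7 in ENCDCs and 1614 ± 188 in gut cells, so the level was 2.24-fold higher in gut cells (log2 fold change -1.16, SE 0.19, edgeR adjusted p = 0.000624). *Erbb2* overlaps 9 exonic bases of *Mien1*, which lies on the opposite strand and cannot be separated in unstranded libraries.

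*Egfr* (ENSMUSG00000020122, chr11:16752203-16918158, plus strand), the receptor of EGF-type ligands, was close to absent from ENCDC libraries, where it had 46, 14, 68 and 17 counts in replicates 1 to 4. Gut replicates 1 to 4 had 1296, 1372, 1512 and 1451 counts, an even level with no overlap. The mean was 36.7 ± 25.6 in ENCDCs and 1385 ± 102 in gut cells, which was 37.7-fold higher in gut cells (log2 fold change -5.23, SE 0.39, edgeR adjusted p = 1.53e-06). The fall was larger for *Egfr* than for *Erbb2*: the 95% confidence interval of the log2 fold change was -6.08 to -4.39 for *Egfr* and -1.58 to -0.75 for *Erbb2*.

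*Nrg1* (ENSMUSG00000062991, chr8:31814551-32884029, minus strand) encodes the neuregulin that drives Schwann cell development. It had 244, 356, 235 and 391 counts in ENCDC replicates 1 to 4, against 251, 316, 249 and 284 counts in gut replicates 1 to 4. The populations overlapped, with the highest and the lowest library both among the ENCDCs. The log2 fold change was 0.21 (SE 0.22, edgeR adjusted p = 0.493), and its 95% confidence interval of -0.27 to 0.68 bounds how far the gene-level sums could differ. The annotation lists 18 transcripts of *Nrg1*, whose use in each population was not measured here.

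*Nrg3* (ENSMUSG00000041014, chr14:38368952-39473088, minus strand), a neuregulin whose product binds ErbB4, had 87, 95, 62 and 171 counts in ENCDC replicates 1 to 4 and 0, 1, 2 and 0 counts in gut replicates 1 to 4. Its reads were thus nearly all from ENCDCs, and as with *Erbb3* the highest library was ENCDC replicate 4. The ENCDC libraries held 415 reads in all and the gut libraries 3, a ratio of 143 with an exact 95% interval of 48.6 to 697 that covers counting error only. The edgeR adjusted p was 3.94e-05.

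*Nrg2* (ENSMUSG00000060275, chr18:36017652-36197380, minus strand), which encodes a neuregulin that binds ErbB3 and ErbB4, had 18, 2, 13 and 36 counts in ENCDC replicates 1 to 4. It had 169, 130, 204 and 210 counts in gut replicates 1 to 4, above every ENCDC library. The mean of 17.6 ± 14.7 in ENCDCs was lower than the mean of 175 ± 37.0 in gut cells, which were 9.94-fold higher (log2 fold change -3.31, SE 0.60, edgeR adjusted p = 0.00122). *Nrg2* and *Nrg3* thus ran in opposite directions between the populations.

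*Nrg4* (ENSMUSG00000032311, chr9:55220222-55326844, minus strand), an ErbB4 ligand, was scarce in both populations. It had 21, 16, 1 and 15 counts in ENCDC replicates 1 to 4 and 29, 18, 7 and 17 counts in gut replicates 1 to 4, with replicate 3 the lowest of each population. The log2 fold change of -0.36 (SE 0.81, 95% confidence interval -2.15 to 1.42, edgeR adjusted p = 0.761) leaves a wide range, and 368 of its 6075 exonic bases overlap *Fbxo22* on the opposite strand, which averaged 1248 counts in ENCDC libraries and 1196.5 counts in gut libraries. How many *Nrg4* counts came from that overlap was not tested.

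**Figure D1:**
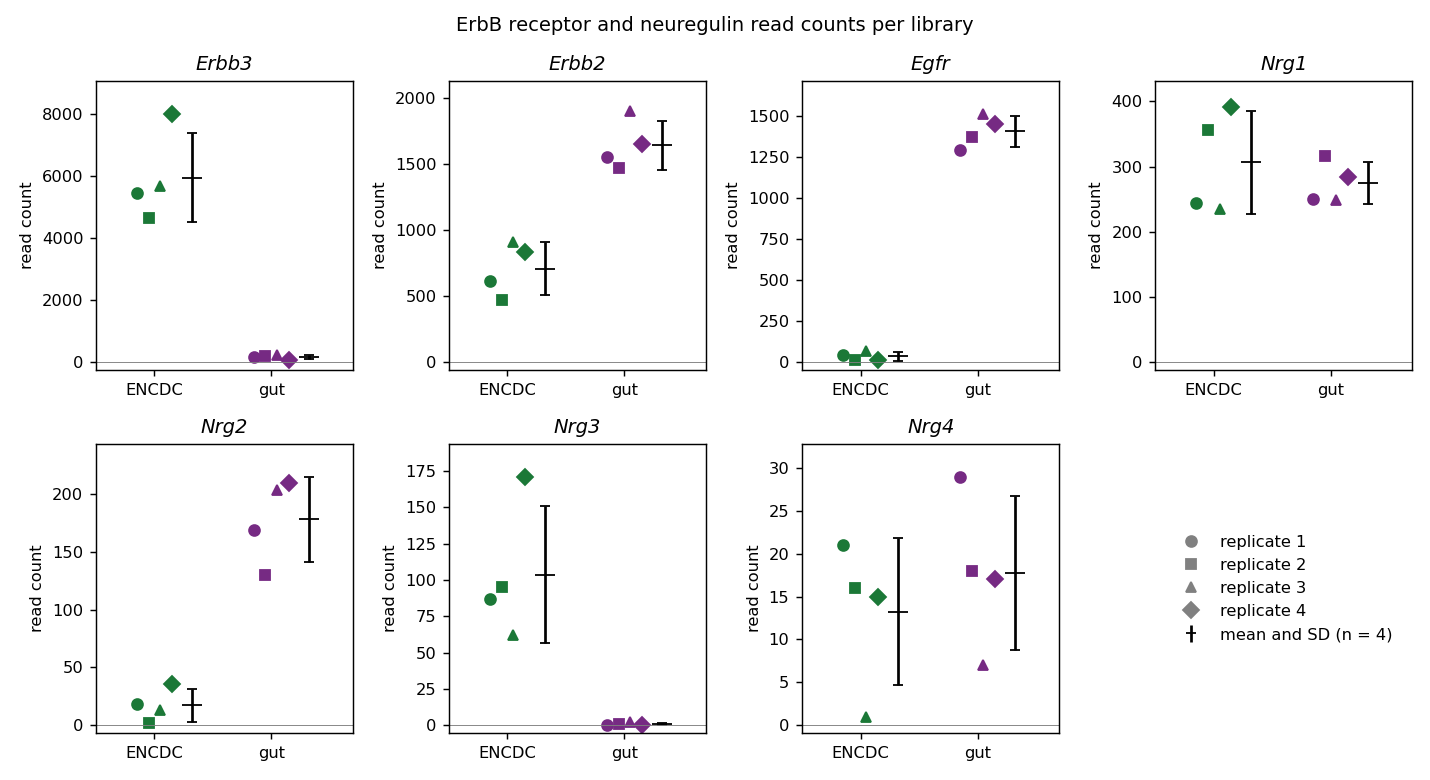
Read counts per library of the 7 measured ErbB family genes (vertical axis, a separate linear scale for each gene), with ENCDC libraries in green left of gut libraries in purple, symbols for replicates 1 to 4, and bars for the mean and SD (n = 4). *Erbb3* and *Nrg3* separate with ENCDCs high, *Erbb2*, *Egfr* and *Nrg2* with ENCDCs low, and *Nrg1* and *Nrg4* overlap.

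To compare levels between genes, counts were divided by the length of all annotated exons of the gene and are given as normalized counts per kilobase. In ENCDCs, *Erbb3* was first at 1008 ± 254, followed by *Erbb2* at 138 ± 39.1, and each was above the next gene in every library. *Nrg1* (30.2 ± 8.06), *Nrg3* (15.5 ± 7.24), *Nrg2* (5.62 ± 4.68), *Egfr* (3.24 ± 2.26) and *Nrg4* (2.23 ± 1.44) came next, and each overlapped its neighbor in that order. With the length of the longest transcript, an alternative chosen after seeing the data, *Nrg4* (6.46) came before *Nrg2* (5.77) and *Egfr* (3.60). ENCDCs thus held more receptor than neuregulin mRNA per length.

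In gut cells the order was *Erbb2* (309.7 ± 36.1 counts per kilobase), *Egfr* (122 ± 8.98), *Nrg2* (55.9 ± 11.8), *Erbb3* (29.6 ± 10.7), *Nrg1* (26.1 ± 3.10), *Nrg4* (2.87 ± 1.43) and *Nrg3* (0.108 ± 0.139). Neighbors in this order did not overlap, except *Erbb3* and *Nrg1*, whose order turned with the length of the longest transcript (29.6 for *Erbb3* and 49.9 for *Nrg1*). Summed over the 3 receptors, the level ran from 881 to 1541 counts per kilobase in ENCDC libraries and from 429 to 529 in gut libraries. Summed over the 4 neuregulins, it ran from 36.3 to 79.3 in ENCDC libraries and from 73.9 to 96.2 in gut libraries, so the ligand sums overlapped and the receptor sums did not.

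The composition of each family differed between the populations. *Erbb3* made up 88.1%, 89.4%, 84.0% and 89.2% of the summed receptor level per kilobase in ENCDC replicates 1 to 4, against 6.70%, 8.32%, 7.31% and 3.26% in gut replicates 1 to 4. *Erbb2* made up 12.0 ± 2.35% in ENCDCs and 67.0 ± 2.04% in gut cells, and *Egfr* 0.293 ± 0.206% in ENCDCs and 26.6 ± 1.41% in gut cells. These shares leave out *Erbb4*. *Erbb3* was therefore the main receptor transcript of ENCDCs and *Erbb2* that of gut cells, with *Egfr* second.

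Of the summed neuregulin level, *Nrg1* made up 57.6 ± 8.46% in ENCDCs and 31.2 ± 6.42% in gut cells, although its own level did not pass the test. *Nrg3* made up 28.2 ± 3.18% in ENCDCs and 0.130 ± 0.159% in gut cells. *Nrg2* made up 10.1 ± 6.06% in ENCDCs and 65.2 ± 7.25% in gut cells. *Nrg1* and *Nrg3* thus made up most of the ENCDC sum, and *Nrg2* and *Nrg1* most of the gut sum. That *Nrg2* came before *Nrg1* in gut cells rests on the division by length, since *Nrg1* had more reads than *Nrg2* in all 4 gut libraries.

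In an exact two-sided permutation test of each share, 6 of the 7 shares reached p = 0.0286 (adjusted p = 0.0333 over the 7), the smallest that 4 against 4 libraries allow. The share of *Nrg4* was 4.09 ± 3.02% in ENCDCs and 3.47 ± 1.88% in gut cells (exact permutation p = 0.743). The shares follow from the same counts as the gene tests and are not independent of them. Shares of a family make up a whole, so a larger share of a gene goes with smaller shares of others. The size of the differences depended on length. For *Nrg1* it was 26.4 percentage points with the length of all exons, 17.7 points with the length of the longest transcript and 12.0 points without division by length (exact permutation p = 0.0857). Without division by length, the difference was -43.1 points for *Egfr*, against -26.3 with it, and -33.9 points for *Nrg2*, against -55.2 with it, both still at an exact permutation p of 0.0286.

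**Figure D2:**
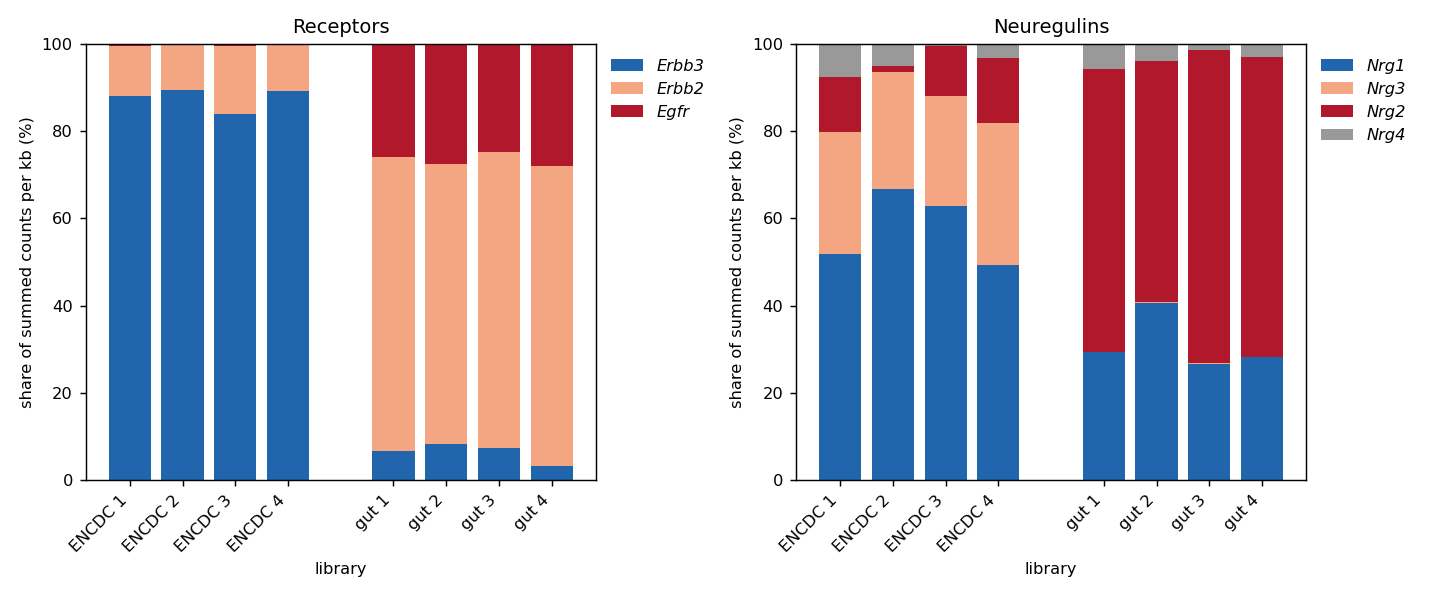
Share of each gene in the summed counts per kilobase (vertical axis, percent) of the 3 measured receptors (left panel) and the 4 neuregulins (right panel), with 1 stacked bar for each library, ENCDC replicates 1 to 4 left of gut replicates 1 to 4. *Erbb3* fills 84.0% to 89.4% of the receptor bars of ENCDCs and 3.26% to 8.32% of those of gut cells.

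The heterodimer partners *Erbb3* and *Erbb2* were also compared within each library, where the scaling of the library has no part. The ratio of *Erbb3* to *Erbb2* per kilobase was 7.69, 8.55, 5.42 and 8.31 in ENCDC replicates 1 to 4, against 0.0995, 0.130, 0.108 and 0.0473 in gut replicates 1 to 4. *Erbb3* exceeded its partner in every ENCDC library and was below it in every gut library. The log2 ratio averaged 2.88 ± 0.30 in ENCDCs (SD, n = 4) and -3.47 ± 0.64 in gut cells (SD, n = 4). The difference was 6.36 (exact two-sided permutation p = 0.0286 for unpaired libraries, the smallest possible).

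Levels in the population where each gene was low were set beside the markers of the other population. As a percentage of the gut mean, *Egfr* stood at 3.37, 1.03, 4.93 and 1.27 in ENCDC replicates 1 to 4. The median mesenchyme marker stood at 4.73, 1.66, 9.12 and 2.68, and the median smooth muscle marker at 6.27, 3.72, 17.0 and 2.39. *Egfr* was highest in ENCDC replicate 3 and lowest in replicate 2, and mesenchyme markers had the same highest and lowest libraries.

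*Nrg2* stood at 10.4%, 1.16%, 7.44% and 21.2% of its gut mean in ENCDC replicates 1 to 4, highest in replicate 4. The median endothelial marker was also highest in replicate 4 (7.51%, 2.33%, 19.2% and 23.5%), while its list summed highest in replicate 3, as did the mesenchyme, smooth muscle and epithelial lists. *Erbb2* stood at 38.6%, 29.8%, 56.6% and 53.4%, above the median of the mesenchyme, smooth muscle, epithelium and endothelium markers in every ENCDC library. The medians of the epithelial markers were 7.06%, 12.7%, 21.4% and 12.9%. The part of residual gut cells in the low counts of *Egfr* and *Nrg2* was not tested.

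The whole lists showed the same separation. The 6 mesenchyme markers all fell and summed to 209 to 1482 CPM in ENCDC libraries and 10749 to 14348 CPM in gut libraries, and the 6 smooth muscle markers all fell and summed to 76.6 to 573 CPM in ENCDC libraries and 3063 to 3767 CPM in gut libraries. The 6 epithelial markers all fell too, with sums of 19.3 to 41.3 CPM in ENCDC libraries and 181 to 278 CPM in gut libraries. Of the 5 endothelial markers 4 fell, with sums of 4.83 to 13.02 CPM in ENCDC libraries and 56.9 to 86.0 CPM in gut libraries. In these lists 0 markers were at 0 throughout a population.

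In gut replicates 1 to 4, *Erbb3* stood at 2.85%, 3.57%, 3.84% and 1.47% of its ENCDC mean, and *Nrg3* at 0%, 0.929%, 1.86% and 0%. The median of the 6 progenitor and glial markers stood at 2.92%, 3.76%, 1.52% and 1.68%, that of the 8 young neuron markers at 1.34% to 1.58%, and *Ednrb* at 6.24% to 6.93%. *Erbb3* and the medians of the neural crest markers were thus all under 4% of their ENCDC means in the gut libraries. Single progenitor and glial markers spread more widely, from 0% to 8.39% in gut replicate 1 and from 0.848% to 26.5% in gut replicate 2. The progenitor and glial markers summed to 662 to 719 CPM in ENCDC libraries and 17.5 to 22.9 CPM in gut libraries, and the neuron markers to 3803 to 4602 CPM in ENCDC libraries and 74.1 to 78.3 CPM in gut libraries. Whether the gut reads of *Erbb3* came from ENCDCs left in the GFP- sort was not tested.

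**Figure D3:**
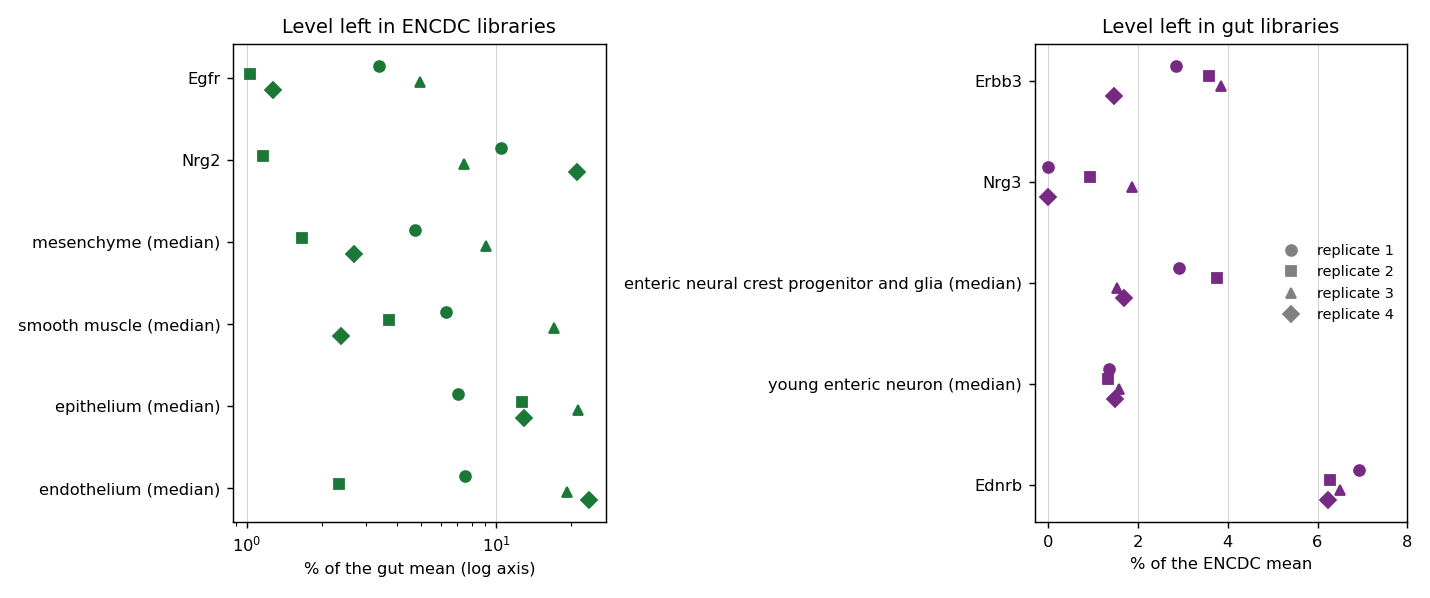
Level of each gene, or median level of each marker list, as a percentage of its mean in the other population, in ENCDC libraries (left panel, log axis) and gut libraries (right panel, linear axis), with symbols for replicates 1 to 4. *Egfr* at 1.03% to 4.93% in ENCDC libraries lies in the range of the mesenchyme medians (1.66% to 9.12%) or below it. *Erbb3* at 1.47% to 3.84% in gut libraries lies near the progenitor and glial medians (1.52% to 3.76%). The spread of single markers is not shown.

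Genes that act with the ErbB family were grouped into 7 lists, of which 73 genes were tested. In all, 24 (32.9%) rose and 13 (17.8%) fell, against the 17.0% and 20.9% of all genes, and the median log2 fold change was 0.08 over the lists and -0.04 over all genes. The lists differed among themselves, with most of the genes that rose lying downstream of the receptors.

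The EGF-type ligands of EGFR and ErbB4 were low throughout. Of 4 tested, 0 rose and 2 fell. *Tgfa*, an EGFR ligand, had 44, 54, 56 and 31 counts in ENCDC replicates 1 to 4 and 115, 118, 260 and 90 counts in gut replicates 1 to 4 (log2 fold change -1.61, edgeR adjusted p = 0.00846). *Hbegf*, which binds EGFR and ErbB4, had 35, 16, 17 and 24 counts in ENCDC libraries and 82, 78, 60 and 63 counts in gut libraries (log2 fold change -1.56, edgeR adjusted p = 0.0133). *Egf* and *Btc* were not called, and *Areg*, *Ereg* and *Epgn* had too few counts to be tested.

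Membrane-bound ligands of this family are released by proteases. Of 9 such proteases and their regulators, 2 rose (*Adam12* and *Rhbdf1*), 4 fell (*Adam9*, *Adam19*, *Bace2* and *Rhbdf2*) and *Adam10*, *Adam17* and *Bace1*, the enzymes best known for shedding and neuregulin cleavage, were not called. *Adam12*, a metalloprotease, had 2673, 2087, 3140 and 3260 counts in ENCDC libraries and 1011, 794, 820 and 693 counts in gut libraries (log2 fold change 1.80, SE 0.16, edgeR adjusted p = 6.51e-06). *Adam19*, a related enzyme, averaged 718 ± 222 in ENCDCs and 1334.5 ± 69.1 in gut cells (log2 fold change -0.89). The call of *Rhbdf1* was lost without ENCDC replicate 3 (edgeR adjusted p = 0.0504), gut replicate 1 (0.0817) or gut replicate 2 (0.0960), which left 1 gene higher. The call of *Adam9* was lost without ENCDC replicate 2 (0.0748), ENCDC replicate 4 (0.0796), gut replicate 1 (0.103) or gut replicate 4 (0.0831).

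Among 8 partners and scaffolds of the receptors, 1 rose and 2 fell, near the 17.0% and 20.9% of all genes tested. *Cspg5*, the gene of neuroglycan C, a neural proteoglycan also described as a ligand of ErbB3, had 228, 209, 184 and 285 counts in ENCDC libraries and 62, 56, 53 and 82 counts in gut libraries (log2 fold change 1.89, SE 0.26, edgeR adjusted p = 0.000204). *Erbin*, which encodes a scaffold that binds ErbB2, averaged 1284 ± 201 in ENCDCs and 2113 ± 395 in gut cells (log2 fold change -0.72), and *Grb7*, an ErbB2 adaptor, averaged 22.8 ± 10.9 in ENCDCs and 103 ± 31.7 in gut cells (log2 fold change -2.17).

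Of 18 adaptors and members of the Ras-MAPK pathway, 10 rose and 0 fell. Among them were the adaptors *Shc2*, *Shc3* and *Shc4*, the GTPases *Hras* and *Nras*, and the kinases *Map2k1*, *Map2k2* and *Mapk3*. With limma-voom or the replicate block, 9 rose. *Shc3* had few counts and overlapped, with 69, 118, 5 and 137 in ENCDC libraries and 5, 10, 13 and 0 in gut libraries (log2 fold change 3.59, SE 1.02). *Shc4* had 707, 617, 352 and 613 counts in ENCDC libraries and 79, 48, 111 and 54 counts in gut libraries, whereas the widely expressed *Shc1* had a log2 fold change of -0.01 and was not called. *Map2k1*, which encodes MEK1, averaged 2752 ± 288 in ENCDCs and 1275 ± 55.5 in gut cells (log2 fold change 1.11, SE 0.10, edgeR adjusted p = 7.21e-06). The 3 RAF kinase genes and *Grb2*, *Gab1*, *Sos1* and *Sos2* were not called.

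Of 11 genes of the PI3K-Akt pathway, 4 rose (among them *Pik3cd*, *Pik3r1* and *Pik3r3*) and 1 fell (*Pik3ca*), against 17.0% and 20.9% of all genes tested. *Pik3r3*, a regulatory subunit that binds ErbB3, had 1176, 906, 772 and 784 counts in ENCDC libraries and 468, 540, 571 and 498 counts in gut libraries (log2 fold change 0.86, SE 0.16, edgeR adjusted p = 0.00129). Of its 5300 exonic bases, 1289 overlap the protein-coding gene *Gm49337* on the same strand, and the effect on its counts was not tested. Only 2 genes rose without ENCDC replicate 1 or 2, or without gut replicate 1, 2 or 4. The call of *Pik3r1* (log2 fold change 0.53, edgeR adjusted p = 0.0446) was lost in these 5 cases and without ENCDC replicate 4, with adjusted p from 0.0560 to 0.144. It was also lost with RLE factors (edgeR adjusted p = 0.0627), no factors (0.0624) or the replicate block (0.0854). No factors and the block likewise left 2 genes higher, which is near the part of all genes tested that rose. *Pik3ca* lost its call without ENCDC replicate 2 (0.0517) or gut replicate 3 (0.0530), which left 0 genes that fell.

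Of 12 negative regulators of the receptors, 0 rose and 3 fell, against 17.0% and 20.9% of all genes tested. The part that fell was thus near that of all genes, and the median log2 fold change of the list was -0.005. *Lrig1*, which promotes the breakdown of ErbB receptors, averaged 852 ± 123 in ENCDCs and 1673 ± 71.0 in gut cells (log2 fold change -0.97, SE 0.12, edgeR adjusted p = 7.94e-05). Its relative *Lrig3* had 310, 117, 513 and 255 counts in ENCDC libraries and 1418, 1069, 1183 and 1235 counts in gut libraries (log2 fold change -1.99). *Usp8*, a deubiquitinase that stabilizes the ErbB3 ubiquitin ligase encoded by *Rnf41*, fell by 0.49 on the log2 scale, while *Rnf41* itself was not called. Without ENCDC replicate 3, 2 genes of this list rose.

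The feedback inhibitors and Ets factors that follow MAPK activity had the largest median of the 7 lists (log2 fold change 1.02). Of 11 tested, 7 rose (*Dusp4*, *Dusp6*, *Spry2*, *Spry4*, *Etv1*, *Etv4* and *Etv5*) and 1 fell (*Spry1*). *Dusp6*, an ERK phosphatase, had 5588, 6002, 5206 and 5946 counts in ENCDC libraries and 1204, 1187, 974 and 936 counts in gut libraries (log2 fold change 2.45, SE 0.11, edgeR adjusted p = 4.12e-08). *Etv5* had 1289, 1628, 1020 and 1707 counts in ENCDC libraries and 534, 432, 454 and 512 counts in gut libraries (log2 fold change 1.60, edgeR adjusted p = 2.83e-05). The Sprouty genes split, since *Spry1* averaged 999.6 ± 68.4 in ENCDCs and 1528 ± 77.9 in gut cells (log2 fold change -0.61, edgeR adjusted p = 0.000503). These genes also follow other receptor tyrosine kinases, and which receptor they follow here was not tested.

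**Figure D4:**
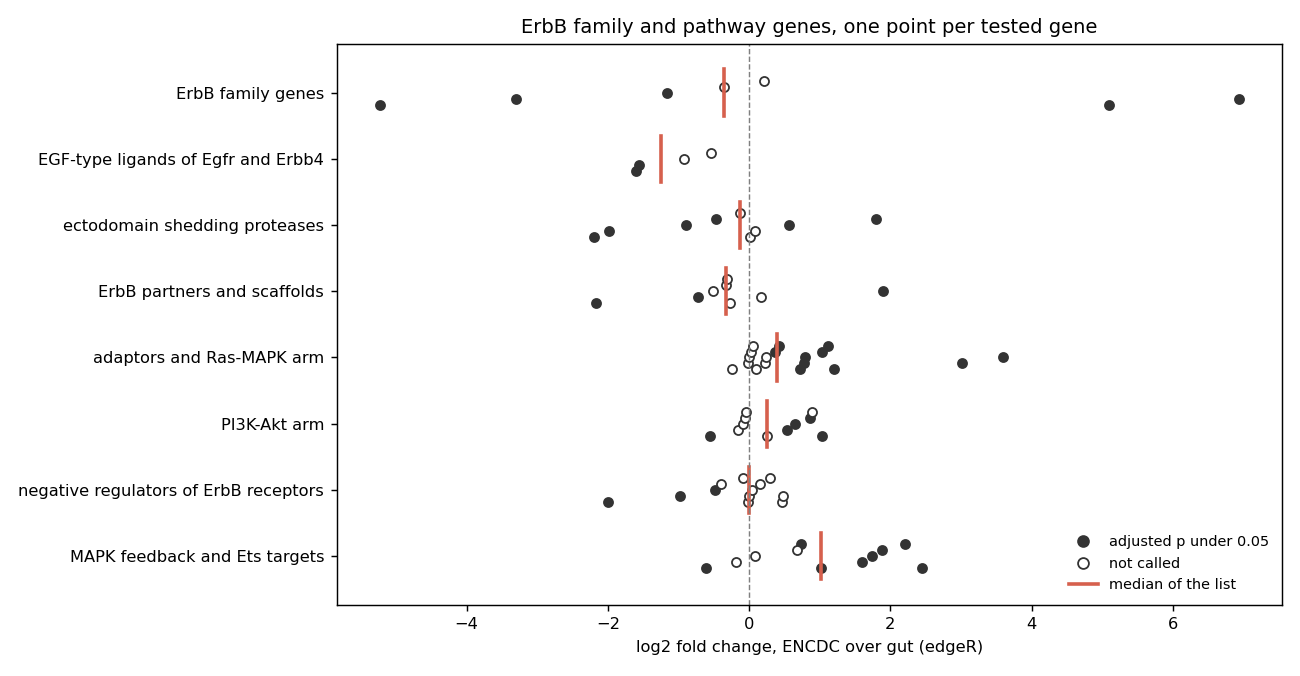
Log2 fold change between ENCDCs and gut cells (horizontal axis, edgeR, positive where ENCDCs are higher) for each tested gene of the ErbB family and of the 7 pathway lists (rows), with filled points for adjusted p under 0.05, open points for genes not called and a red line at the median of the list. The family itself has the widest spread, from -5.23 for *Egfr* to 6.94 for *Nrg3*, and the feedback and Ets list has the highest median at 1.02.

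The genes whose pattern was most like each member were found by Pearson correlation of log2(CPM + 1) over the 8 libraries among 11563 genes. Because the libraries form 2 separate populations, a high r mostly reflects a difference in the same direction. It does not require a difference of the same size, and it is a description without a test. *Erbb3* was most like *Gdap1l1* (r = 0.999), *Elovl4*, a fatty acid elongase gene (r = 0.997), and *Brsk2*, a kinase gene of neuronal polarity (r = 0.997). Their log2 fold changes were 3.80, 1.76 and 5.46 in that order, against 5.09 for *Erbb3*. *Nrg3* was most like *Kif1a*, a kinesin gene of axonal transport, and *Egfr* was most like *Tmem45a* and *Emp1*.

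*Erbb2* was most like *Flna* (r = 0.995), which encodes an actin crosslinker, and *Fbn1* (r = 0.994), which encodes a matrix fibril protein. *Nrg2* was most like *Slc12a2* (r = 0.999), an ion cotransporter gene with a log2 fold change of -0.90, against -3.31 for *Nrg2*. *Nrg1*, with overlapping populations, had lower best values, led by *Mrs2* (r = 0.945) and *Frat2* (r = 0.932). *Nrg4* was below the mean count of 100 required for this search.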

How the data were processed

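mRNA-seq libraries of 4 ENCDC and 4 gut samples were analysed. The authors pooled RNA where needed, made unstranded libraries (SMARTer and NexteraXT), mapped reads with STAR 2.4.2a on the mm10 genome and normalized them with PORT, and the deposited values are the minimum normalized read counts of each gene. The design text of the series speaks of small RNA and CPM, but the values are whole-number counts and the labels give mRNA, so they were tested as counts. PORT keeps a subset of reads to bring libraries to 1 depth, which removes reads from the deeper libraries.

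The counts were tested in R 4.3.3 with edgeR 4.0.16 (TMM factors, quasi-likelihood F test), with limma 3.58.1 (voom) and DESeq2 1.42.0 as alternatives. The other alternatives were RLE factors, no factors, no filter, a mean count of at least 10, a replicate block, other gene lengths for the shares, and leaving out each library. Lengths, transcripts and coordinates came from GENCODE M21 on GRCm38. Shares and ratios were computed in Python 3.11.15 with pandas 2.3.3 and tested with SciPy 1.17.1, and proteins were compared with Biopython 1.88. The tests were checked on simulated counts.

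The text names the 8 members, from each pathway list up to 3 called genes in each direction with the highest mean count, and up to 3 genes of like pattern per member; genes named beyond these, such as *Shc4*, were chosen after their values were seen. The members and lists were chosen with earlier results of these data known. *Erbb4* was not analysed here, so the shares were tested over 7 genes. Normalized means are counts divided by the relative TMM library size, ± SD. Some genes that the naming rule picks are not reported here. Small RNA data were not analysed here.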

Additional observations from a re-analysis of the deposited data

How the results depend on the processing

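The calls of the 7 measured members, 2 higher and 3 lower in ENCDCs, held in all 15 alternatives. The log2 fold change ran from 4.87 to 5.25 for *Erbb3*, -1.30 to -1.01 for *Erbb2*, -5.72 to -4.96 for *Egfr*, 6.57 to 7.87 for *Nrg3* and -3.96 to -2.93 for *Nrg2*. For *Nrg1* it ran from 0.06 to 0.32 (adjusted p from 0.234 to 0.856) and for *Nrg4* from -0.74 to 0.02 (adjusted p from 0.515 to 0.983), positive only without ENCDC replicate 3, where *Nrg4* had 1 count. Without division by length the difference in the *Nrg1* share was 11.97 percentage points (exact permutation p = 0.0857). With libraries left out in turn, 21 to 29 pathway genes rose and 11 to 13 fell, and the difference in share ran from 80.2 to 82.5 points for *Erbb3*, -56.2 to -54.4 for *Erbb2*, -26.8 to -25.8 for *Egfr*, 23.4 to 29.6 for *Nrg1*, -58.5 to -52.2 for *Nrg2* and 26.6 to 29.1 for *Nrg3*. The smallest exact permutation p was then 0.0571, so no share can pass with 3 against 4 libraries.

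The labels do not say whether same-numbered libraries came from the same bowels. Deviations of same-numbered samples had correlations across genes of -0.0057, 0.0634, -0.019 and -0.0156, which cannot decide it, since a shared origin need not leave a visible correlation. With the replicate block, 2609 genes rose and 3324 fell among all genes, against 3212 and 3946 without it. The members had block log2 fold changes of 5.10 (*Erbb3*), -1.20 (*Erbb2*) and -5.37 (*Egfr*). The share of *Egfr* had an exact permutation p of 0.125 with the block, so it does not pass if the libraries are paired. Among ENCDC samples, only replicate 2 correlated best with its own number. The largest correlation was 0.0952, between ENCDC replicate 4 and gut replicate 3. The block left 2 PI3K-Akt genes higher, as did no factors. Counts limit *Nrg4* and the EGF-type ligands, and sorting purity, RNA per cell and transcript use cannot be told apart in these counts.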
